A study of Mus musculus with 39 samples.

Results

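The ileum, the last stretch of the small intestine, was compared with the tissue labelled duodenum/jejunum, its upper stretches, within 6 mice of the inbred strain BALB/cJ. Each of the 6 mice gave 1 library from each tissue, so the members were 12 of the 39 RNA sequencing libraries of the study and the comparison was made within mice. Genes entered when at least 6 of these 12 libraries held at least 1 TPM, a length-scaled measure of a transcript's share in a library, which 15386 of the 34600 entries did. The other libraries came from the colon of the same mice and from the same 3 tissues of 7 C57BL/6J mice. The labels give strain, tissue and mouse number. They give no treatment, sex or age, and do not say which length of duodenum or jejunum was taken.

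Below the stomach the intestinal lining changes its work along its length. The duodenum receives pancreatic enzymes and bile and, with the jejunum, takes up most of the iron, sugar and fat of a meal. The ileum recovers bile acids and vitamin B12, carries more lymphoid tissue and faces more bacteria. Bile acids enter ileal enterocytes through the sodium-dependent transporter Slc10a2, are carried by the binding protein Fabp6 and leave through the heteromeric transporter Slc51a/Slc51b. Inside the cell they activate the nuclear receptor FXR, encoded by Nr1h4, which induces Fgf15, the hormone that restrains bile acid synthesis in the liver.

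FXR is known to bind inverted repeats of a half-site parted by 1 base, and such a repeat, GGTNANTNACC on either strand, was searched in the 300 bases around the RefSeq start of each gene (GRCm38.p6, 250 bases before and 50 after). It was present in 0.262% of all 32851 promoter windows. Of 9 genes of the bile acid list with a window, Fabp6 and Slc51b held it. The windows of Slc10a2, Slc51a, Nr1h4, Nr0b2, Abcc2, Gpbar1 and Rxra did not hold these letters. The Fabp6 stretch is shown because this gene had the largest rise among the genes described here, and the site of Slc51b for comparison. Capitals mark the repeat, which lies 221 and 141 bases before the start of Fabp6 and 186 bases before that of Slc51b.
Fabp6, chr11:43601563-43601812, minus strand: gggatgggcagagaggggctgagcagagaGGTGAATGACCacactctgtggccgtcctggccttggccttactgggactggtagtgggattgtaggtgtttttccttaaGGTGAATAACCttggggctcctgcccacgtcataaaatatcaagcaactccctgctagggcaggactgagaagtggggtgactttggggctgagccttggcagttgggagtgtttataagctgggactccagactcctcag
Slc51b, chr9:65422939-65422968, minus strand: cattcgtggGGTCATTCACCctggactggc
A match of letters describes the sequence and not binding.

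Some libraries stood apart from the rest, and some of the results that rest on them are given with and without them. The duodenum/jejunum library of mouse 5 held almost no transcripts of stomach and Brunner glands, the mucus glands of the first duodenum. Gkn3, a gastrokine, was at 1.54 TPM in that library and at 268 to 716 TPM in the other 5. The trefoil factor Tff2 was listed at 0 there and at 1018 to 2490 TPM in the others. Fabp6 reached 96 TPM in the same library, against 2.99 to 24 TPM in the other duodenum/jejunum libraries. Pancreatic enzymes were carried by 3 duodenum/jejunum libraries: the summed level of 20 acinar genes was 8644, 649 and 1552 TPM in mice 1, 3 and 6, against 281, 212 and 265 TPM in mice 2, 4 and 5, and 140 to 219 TPM in the 6 ileum libraries. The ileum library of mouse 2 had less of many enterocyte genes and more of immune and stromal genes: the summed level of the fat absorption genes was 7487 TPM in it, against 19139 to 33008 TPM in the other ileum libraries, and that of B cell genes 416 TPM against 198 to 243 TPM. The defining ileal gene Fabp6 was at 4884 TPM in it, and in all 6 mice the ileum was above the duodenum/jejunum for Fabp6 and Slc10a2 and below it for Tmprss15 (enteropeptidase), with no overlap, as the tissue labels say.

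**Figure D1:**
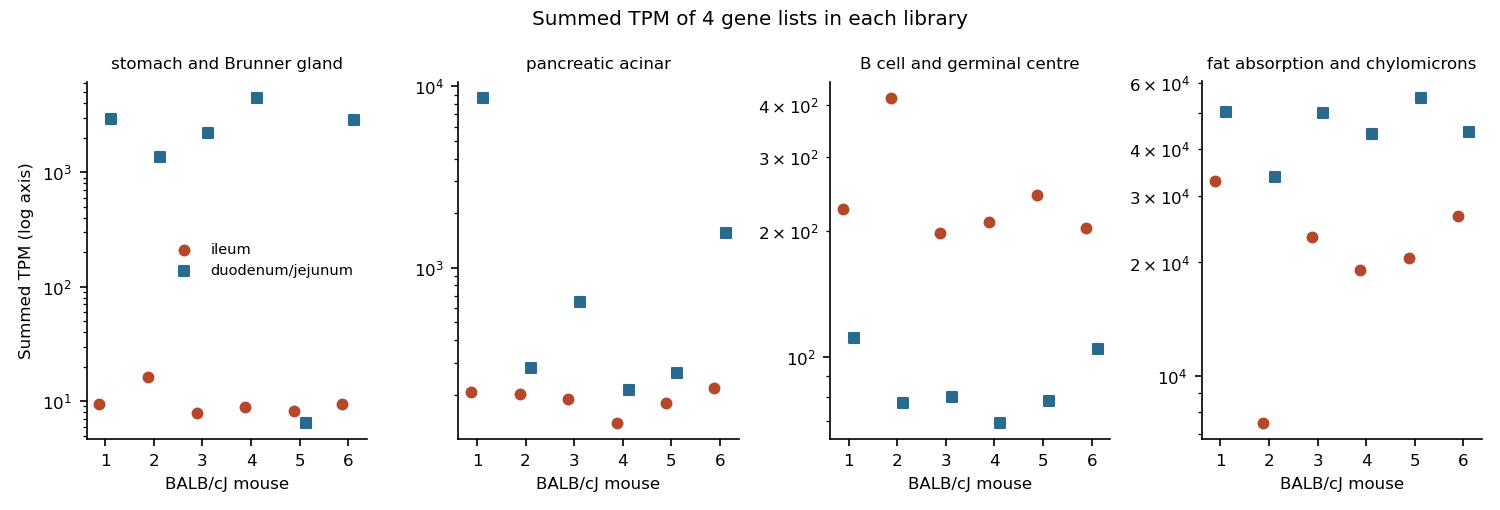
Summed TPM (log axis) over 4 gene lists in the ileum (circles) and duodenum/jejunum (squares) library of each of the 6 BALB/cJ mice. The duodenum/jejunum library of mouse 5 held 6.46 TPM of stomach and Brunner gland genes where the others held 1363 to 4480, mouse 1 had the most pancreatic enzyme (8644 TPM), and the ileum library of mouse 2 was highest in B cell genes (416 TPM) and lowest in fat absorption genes (7487 TPM).

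Over all genes, limma with the mouse as a block called 7139 of 15386 genes (46.4%) at a Benjamini-Hochberg adjusted p under 0.05. In the ileum 5785 were higher (37.6%) and 1354 lower (8.80%). The median change of all genes was 0.22 on the log2(TPM + 1) scale, so the split depends on the scaling. With relative log expression (RLE) size factors, which bring that median to 0.00, 5436 genes were called (35.3%), 2643 higher (17.2%) and 2793 lower (18.2%). Counts for the gene lists below are to be read against these shares. No gene was called in opposite directions by the 2 scalings, and 2643 of the higher and 1348 of the lower genes were called under both. At least a 2-fold change on the fitted scale was reached by 648 higher and 336 lower genes, or 334 and 470 with RLE factors. The tissues did not overlap in TPM for 2902 genes (18.9%). The minimum level could be met by 1 tissue alone. Tmprss15, Otop3, Pdx1, Onecut2 and Cyp4a10, for example, stayed under 1 TPM in every ileum library and entered only through the duodenum/jejunum. Sult6b2, Sco2 and Sh2d6 entered mainly through the duodenum/jejunum, and Fgf15, Slc6a14 and Cldn8 mainly through the ileum. Genes of this kind had to differ, so their changes and adjusted p are a description. Below, n is 6 mice per tissue, levels are given as lowest, median and highest mouse or as mean ± SD, and a log2 change is the fitted ileum minus duodenum/jejunum difference of log2(TPM + 1) with its standard error (SE) and limma's adjusted p.

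Most bile acid handling genes rose. Of 10 tested genes of the list 7 were higher and 1 lower, with a median change of 1.57, against 0.22 for all genes, and with RLE factors 6 were higher and 1 lower. Fabp6 (chr11:43596049-43601540) held 4884, 6159 and 11144 TPM in the ileum, against 2.99, 4.88 and 96 TPM in the duodenum/jejunum. Fabp6 changed by 9.25 ± 0.46 on the log2 scale (adjusted p = 2.1e-06). Its ratio of means was 297, and the lowest ileum library was far above the highest duodenum/jejunum library, that of mouse 5. Without mouse 5 its log2 change was 9.73 ± 0.35 (adjusted p = 3.5e-06). The uptake transporter Slc10a2 (chr8:5083219-5105351) held 111, 135 and 229 TPM in the ileum, against 3.31, 4.24 and 9.3 TPM in the duodenum/jejunum. Slc10a2 changed by 4.67 ± 0.12 on the log2 scale (adjusted p = 2.8e-08). All 6 mice agreed in direction and the tissues did not overlap. Fgf15 (chr7:144896531-144900953), which antisense transcripts overlap in the annotation, held 7.05, 51.8 and 109 TPM in the ileum, against 0.0976, 0.503 and 1.88 TPM in the duodenum/jejunum. Fgf15 changed by 4.79 ± 0.39 on the log2 scale (adjusted p = 2.8e-05). Its ileal level was lowest in mouse 1 and spread widely between mice, and every ileum library was above every duodenum/jejunum library. The export pair moved together. Slc51a was at 421 ± 78.9 TPM in the ileum and 120 ± 10.1 TPM in the duodenum/jejunum (log2 change 1.78 ± 0.08, adjusted p = 1.3e-06). Slc51b was at 350 ± 75.3 TPM in the ileum and 91.2 ± 18.4 TPM in the duodenum/jejunum (log2 change 1.93 ± 0.09, adjusted p = 1.0e-06). Both overlap another gene in the annotation and neither overlapped between tissues in TPM. The receptor gene Nr1h4 held 67.2, 69.8 and 80.4 TPM in the ileum, against 23.5, 28 and 28.8 TPM in the duodenum/jejunum. Nr1h4 changed by 1.36 ± 0.08 on the log2 scale (adjusted p = 5.7e-06). Nr0b2, the repressor SHP induced by FXR, was at 6.2 ± 2.07 TPM in the ileum and 3.66 ± 0.797 TPM in the duodenum/jejunum, higher in 5 of 6 mice (log2 change 0.58 ± 0.16, adjusted p = 0.016). That call ended with RLE factors (adjusted p = 0.09). Abcc2, which exports conjugates into the lumen, fell, at 54.5 ± 18.8 TPM in the ileum and 160 ± 39.5 TPM in the duodenum/jejunum (log2 change -1.58 ± 0.12, adjusted p = 1.7e-05). Abcc3 on the basolateral side (0.02 ± 0.14, 0.91) and Rxra, the FXR partner (0.20 ± 0.12, 0.2), were not called.

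**Figure D2:**
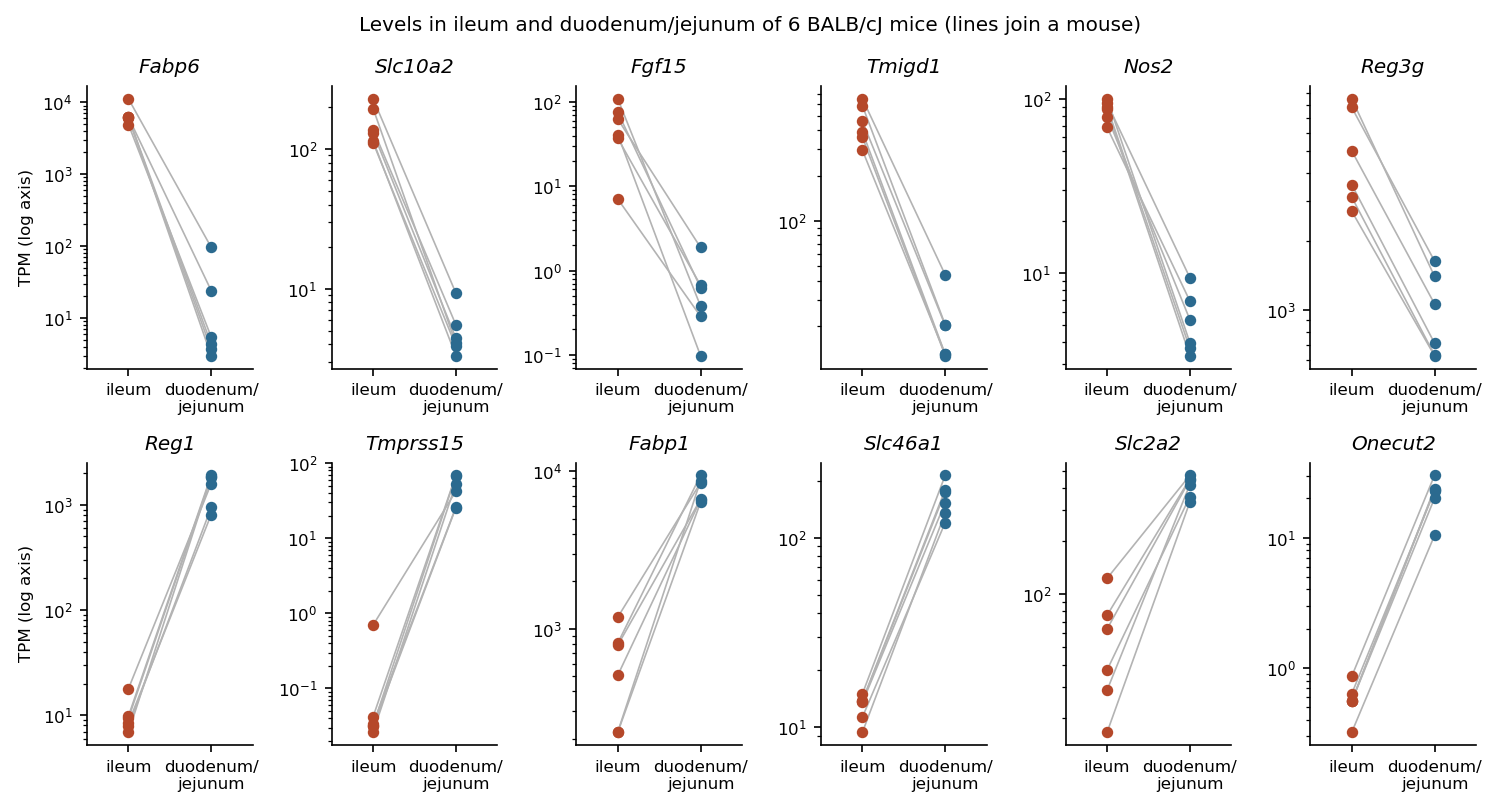
TPM (log axes that differ between panels) of 12 genes in the ileum (left) and duodenum/jejunum (right) of 6 BALB/cJ mice, with a line for each mouse. The 6 upper genes were higher and the 6 lower genes lower in the ileum of every mouse, and Fabp6 spans 2.99 to 11144 TPM.

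Of 6 vitamin B12 uptake genes tested, 2 were higher under both scalings and none lower, where 37.6% of all genes were higher, or 17.2% with RLE factors. The receptor pair that takes up B12 with intrinsic factor was not called. Cubn was at 221 ± 54.2 TPM in the ileum and 198 ± 31.4 TPM in the duodenum/jejunum (log2 change 0.14 ± 0.13, adjusted p = 0.4). Amn was at 57.1 ± 17.5 TPM in the ileum and 43.6 ± 13.1 TPM in the duodenum/jejunum (log2 change 0.37 ± 0.15, adjusted p = 0.063). The exporter Abcc1 (log2 change 0.69 ± 0.12, adjusted p = 0.0023) and the endocytic adaptor Dab2 (log2 change 0.63 ± 0.09, adjusted p = 8.1e-04) rose, and the tissues overlapped for each.

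Other genes with the largest rises in the ileum code for surface proteins and enzymes of enterocytes and for mucosal defence. Tmigd1, an adhesion molecule of the immunoglobulin superfamily, held 294, 424 and 647 TPM in the ileum, against 12.7, 16.6 and 43.8 TPM in the duodenum/jejunum. Tmigd1 changed by 4.50 ± 0.12 on the log2 scale (adjusted p = 4.7e-08). The glycosyltransferase gene Mgat4c was at 152 ± 29.5 TPM in the ileum and 9.58 ± 6.47 TPM in the duodenum/jejunum (log2 change 4.01 ± 0.17, adjusted p = 1.0e-06). The sulfite oxidase gene Suox was at 150 ± 34.6 TPM in the ileum and 8.54 ± 2.05 TPM in the duodenum/jejunum (log2 change 3.99 ± 0.09, adjusted p = 1.9e-08). Plb1, a brush border phospholipase, held 65.3, 257 and 365 TPM in the ileum, against 11.3, 14.5 and 64.5 TPM in the duodenum/jejunum. Plb1 changed by 3.58 ± 0.37 on the log2 scale (adjusted p = 1.1e-04). The library lowest in ileum was that of mouse 2 and the highest duodenum/jejunum library that of mouse 5, and they nearly met at 65.3 and 64.5 TPM. Slc34a2, the intestinal phosphate transporter, was at 309 ± 86 TPM in the ileum and 36.2 ± 18.4 TPM in the duodenum/jejunum (log2 change 3.16 ± 0.20, adjusted p = 6.8e-06). Slc6a14, a transporter of neutral and cationic amino acids, was at 24.5 ± 9 TPM in the ileum and 0.793 ± 0.756 TPM in the duodenum/jejunum (log2 change 3.82 ± 0.30, adjusted p = 2.4e-05). None of these overlapped between tissues.

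Brush border peptidases, which finish protein digestion, split by member. Of 15 tested 8 were higher and 5 lower, or 6 and 5 with RLE factors. The largest fall of the list was that of Tmprss15 (chr16:78953008-79091097), enteropeptidase, which activates trypsinogen in the duodenum, at 0.0261, 0.033 and 0.699 TPM in the ileum, against 25.5, 47.7 and 68.8 TPM in the duodenum/jejunum. Tmprss15 changed by -5.32 ± 0.23 on the log2 scale (adjusted p = 1.0e-06). Mme, neprilysin, fell, at 169 ± 61.2 TPM in the ileum and 668 ± 101 TPM in the duodenum/jejunum (log2 change -2.06 ± 0.16, adjusted p = 2.6e-05). Ace, the angiotensin-converting enzyme, was at 347 ± 156 TPM in the ileum and 1182 ± 223 TPM in the duodenum/jejunum (log2 change -1.88 ± 0.17, adjusted p = 6.2e-05). The glutathione-degrading Ggt1 was at 505 ± 131 TPM in the ileum and 822 ± 109 TPM in the duodenum/jejunum (log2 change -0.74 ± 0.14, adjusted p = 0.0028). Rises were seen for Naaladl1 (log2 change 1.91 ± 0.10, adjusted p = 3.3e-06), an aminopeptidase of the ileum, at 1255 ± 285 TPM in the ileum and 330 ± 67.9 TPM in the duodenum/jejunum. The meprin subunit Mep1a was at 488 ± 127 TPM in the ileum and 141 ± 40.9 TPM in the duodenum/jejunum (log2 change 1.78 ± 0.11, adjusted p = 6.6e-06). The dipeptidase Dpep1 was at 533 ± 153 TPM in the ileum and 170 ± 46.8 TPM in the duodenum/jejunum (log2 change 1.63 ± 0.12, adjusted p = 1.7e-05). The aminopeptidase Xpnpep2 was at 264 ± 64.3 TPM in the ileum and 120 ± 18.2 TPM in the duodenum/jejunum (log2 change 1.10 ± 0.11, adjusted p = 1.1e-04). In Naaladl1, Mep1a and Xpnpep2 the lowest ileum library was that of mouse 2. Amino acid transporters split as well, with 6 higher and 7 lower of 18 (5 and 8 with RLE factors). Of all genes 37.6% were higher and 8.80% lower (17.2% and 18.2% with RLE factors). The glutamate transporter Slc1a1 was at 76.3 ± 5.45 TPM in the ileum and 21.7 ± 3.89 TPM in the duodenum/jejunum (log2 change 1.78 ± 0.10, adjusted p = 3.8e-06). The glutamine transporter Slc1a5 also rose (log2 change 1.06 ± 0.10, adjusted p = 6.5e-05). The proton-coupled Slc36a1 (log2 change -1.37 ± 0.12, adjusted p = 4.4e-05) and the basolateral Slc7a8 (log2 change -1.68 ± 0.18, adjusted p = 1.2e-04) fell.

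Fat absorption genes were lower in the ileum. Of 29 tested, 18 were lower and 2 higher with a median change of -0.59, and with RLE factors 23 were lower and 1 higher. Fabp1 (chr6:71199827-71205023), a fatty acid binding protein, held 220, 646 and 1184 TPM in the ileum, against 6354, 7535 and 9417 TPM in the duodenum/jejunum. Fabp1 changed by -3.88 ± 0.30 on the log2 scale (adjusted p = 2.5e-05). No ileum library came within reach of the lowest duodenum/jejunum library. The chylomicron protein genes Apoa4 and Apoc2 fell. Apoa4 was at 1406 ± 910 TPM in the ileum and 8989 ± 1757 TPM in the duodenum/jejunum (log2 change -2.94 ± 0.27, adjusted p = 5.8e-05). Apoc2 was at 436 ± 194 TPM in the ileum and 2614 ± 358 TPM in the duodenum/jejunum (log2 change -2.72 ± 0.21, adjusted p = 2.6e-05). The triglyceride-forming Dgat2 was at 130 ± 48.8 TPM in the ileum and 350 ± 80.1 TPM in the duodenum/jejunum (log2 change -1.46 ± 0.12, adjusted p = 2.9e-05). The acyl-CoA synthetase Acsl3 (log2 change 0.54 ± 0.12, adjusted p = 0.0069) and the acyltransferase Agpat2 (log2 change 0.37 ± 0.08, adjusted p = 0.0043) rose. The call of Agpat2 ended with RLE factors (adjusted p = 0.22) and that of Acsl3 did not (0.034). Sugar genes were lower in 16 of 17 under both scalings, with none higher and a median change of -1.38. The basolateral glucose transporter Slc2a2 held 16.6, 50.5 and 123 TPM in the ileum, against 332, 431 and 470 TPM in the duodenum/jejunum. Slc2a2 changed by -3.09 ± 0.26 on the log2 scale (adjusted p = 3.8e-05), and the tissues did not overlap. Trehalase, Treh, was at 49.9 ± 25 TPM in the ileum and 232 ± 53.7 TPM in the duodenum/jejunum (log2 change -2.31 ± 0.17, adjusted p = 1.8e-05). The hexose transporter Slc2a7 was at 10.2 ± 4.45 TPM in the ileum and 56.6 ± 13.8 TPM in the duodenum/jejunum (log2 change -2.44 ± 0.18, adjusted p = 1.9e-05). Fbp1 of gluconeogenesis was at 26.4 ± 12.7 TPM in the ileum and 87.1 ± 19.6 TPM in the duodenum/jejunum (log2 change -1.77 ± 0.13, adjusted p = 2.1e-05). In the ileum library of mouse 2 the summed sugar genes were at 3092 TPM, against 5020 to 7446 TPM in the other ileum libraries and 9773 to 13903 TPM in the duodenum/jejunum.

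Genes of iron, calcium and folate uptake, a duodenal task, were lower in 8 of 13 and higher in 1. With RLE factors 8 were lower and none higher. Slc46a1, the proton-coupled folate transporter, held 9.4, 13.6 and 15 TPM in the ileum, against 120, 163 and 213 TPM in the duodenum/jejunum. Slc46a1 changed by -3.56 ± 0.08 on the log2 scale (adjusted p = 1.9e-08). The levels were tight within each tissue and did not overlap. The iron storage gene Fth1 was at 1090 ± 67.4 TPM in the ileum and 3499 ± 1152 TPM in the duodenum/jejunum (log2 change -1.61 ± 0.15, adjusted p = 7.6e-05). The iron importer Slc11a2 was at 44 ± 4.88 TPM in the ileum and 97.5 ± 40.1 TPM in the duodenum/jejunum (log2 change -1.03 ± 0.18, adjusted p = 0.0019). S100g, the vitamin D dependent calcium carrier, held 25.9, 72.2 and 113 TPM in the ileum, against 102, 1636 and 2719 TPM in the duodenum/jejunum. S100g changed by -3.96 ± 0.68 on the log2 scale (adjusted p = 0.0017). Its lowest duodenum/jejunum value was that of mouse 5, whose ileum was higher at 113 TPM against 102 TPM, so the fall was seen in 5 of 6 mice. Hmox1, haem oxygenase, was the member that rose (log2 change 0.55 ± 0.18, adjusted p = 0.034), and its call ended with RLE factors (adjusted p = 0.13) and when any of mice 2, 3, 5 or 6 was left out (0.069 to 0.092). Retinoid genes were lower in 5 of 12 and higher in 2, or 7 and none with RLE factors. Rbp2, which carries retinol in enterocytes, was at 973 ± 437 TPM in the ileum and 3668 ± 599 TPM in the duodenum/jejunum (log2 change -2.07 ± 0.22, adjusted p = 1.3e-04). The retinol dehydrogenase Rdh7 (log2 change -2.00 ± 0.21, adjusted p = 1.3e-04), the retinaldehyde dehydrogenase Aldh1a1 (log2 change -1.21 ± 0.09, adjusted p = 1.4e-05) and the esterifying Lrat (log2 change -0.71 ± 0.11, adjusted p = 9.0e-04) fell too. Bco1, which cleaves carotene, was at 3.05 ± 1.2 TPM in the ileum and 1.99 ± 0.813 TPM in the duodenum/jejunum (log2 change 0.43 ± 0.12, adjusted p = 0.014), with an adjusted p of 0.11 with RLE factors.

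The brush border alkaline phosphatase genes Akp3 and Alpi were lower in the ileum. Akp3 (chr1:87124973-87127912), the duodenal enzyme, held 1.96, 3.27 and 22 TPM in the ileum, against 53.8, 693 and 1686 TPM in the duodenum/jejunum. Akp3 changed by -6.76 ± 0.59 on the log2 scale (adjusted p = 4.5e-05). The lowest duodenum/jejunum value was that of mouse 5 and the highest ileum value, at 22 TPM, that of mouse 2, and the tissues still did not overlap. Alpi was at 263 ± 83.8 TPM in the ileum and 717 ± 228 TPM in the duodenum/jejunum (log2 change -1.46 ± 0.20, adjusted p = 6.0e-04). Of the 7 genes of phosphatases and phosphate transport 2 were higher and 3 lower under both scalings.

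Genes that process foreign compounds were lower in the ileum with few exceptions. Of 36 tested 31 were lower and 2 higher, with a median change of -1.36, and with RLE factors 31 were lower and 1 higher. Of the alcohol dehydrogenases, Adh1 was at 56.5 ± 29.1 TPM in the ileum and 616 ± 123 TPM in the duodenum/jejunum (log2 change -3.57 ± 0.17, adjusted p = 1.6e-06). Adh6a, named by its size of change, was at 11 ± 4.18 TPM in the ileum and 182 ± 35.1 TPM in the duodenum/jejunum (log2 change -3.99 ± 0.15, adjusted p = 5.3e-07). Gsta1, a glutathione transferase, was at 4.15 ± 2.6 TPM in the ileum and 63.4 ± 32.7 TPM in the duodenum/jejunum (log2 change -3.66 ± 0.27, adjusted p = 1.7e-05). Gstm3 was at 9.06 ± 4.71 TPM in the ileum and 43 ± 12.6 TPM in the duodenum/jejunum (log2 change -2.20 ± 0.12, adjusted p = 3.8e-06). The cytochrome P450 gene Cyp2c66 was at 9.89 ± 9.9 TPM in the ileum and 113 ± 45.5 TPM in the duodenum/jejunum (log2 change -3.77 ± 0.27, adjusted p = 1.4e-05). The carboxylesterase gene Ces2g was at 3.01 ± 0.597 TPM in the ileum and 34 ± 7.14 TPM in the duodenum/jejunum (log2 change -3.12 ± 0.09, adjusted p = 4.7e-08). Nr1i3, the receptor CAR that induces such genes, was at 8.28 ± 2.86 TPM in the ileum and 36.6 ± 3.74 TPM in the duodenum/jejunum (log2 change -2.07 ± 0.12, adjusted p = 5.0e-06). These families hold near-identical copies, so reads can be assigned to 1 copy or another. Abcg2, an apical efflux pump, rose, at 313 ± 40.6 TPM in the ileum and 157 ± 25.2 TPM in the duodenum/jejunum (log2 change 0.99 ± 0.09, adjusted p = 5.8e-05). Ces1d was the other riser (log2 change 0.38 ± 0.13, adjusted p = 0.044), and its call ended with RLE factors (adjusted p = 0.25) and without mouse 1, 2, 5 or 6 (0.081 to 0.12). Sult6b2, a sulfotransferase gene named by its size of change and no member of the list, held 0.117, 0.288 and 1.33 TPM in the ileum, against 59.7, 140 and 247 TPM in the duodenum/jejunum. Sult6b2 changed by -6.46 ± 0.27 on the log2 scale (adjusted p = 8.3e-07).

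Fatty acid oxidation genes were lower in 12 of 20 and higher in 2, or 15 and 2 with RLE factors. Cyp4a10, an omega-hydroxylase gene, held 0.0298, 0.25 and 0.397 TPM in the ileum, against 8.18, 12.7 and 14.8 TPM in the duodenum/jejunum. Cyp4a10 changed by -3.36 ± 0.15 on the log2 scale (adjusted p = 1.0e-06). Pdk4, a brake on glucose oxidation, was at 4.9 ± 1.97 TPM in the ileum and 28.4 ± 16.2 TPM in the duodenum/jejunum (log2 change -2.25 ± 0.13, adjusted p = 4.8e-06), with its highest duodenum/jejunum value, 61.1 TPM, in mouse 3. Acaa2 (log2 change -1.06 ± 0.09, adjusted p = 2.8e-05) and Ehhadh (log2 change -0.94 ± 0.09, adjusted p = 5.5e-05) of beta-oxidation were lower, while Acsm3 (log2 change 0.73 ± 0.12, adjusted p = 0.0012) and the carnitine carrier Slc25a20 (log2 change 0.50 ± 0.08, adjusted p = 0.0015) were higher. Cholesterol synthesis genes went the other way: all 23 tested were called higher, 19 of them also with RLE factors, with a median change of 1.17 (0.93 with RLE factors). Their summed level was 1410 ± 114 TPM in the ileum and 740 ± 24 TPM in the duodenum/jejunum. Of the enzymes, Cyp51 held 52.2, 62.2 and 75 TPM in the ileum, against 14.1, 16.1 and 20.1 TPM in the duodenum/jejunum. Cyp51 changed by 1.84 ± 0.10 on the log2 scale (adjusted p = 3.5e-06). Sqle was at 56.1 ± 5 TPM in the ileum and 16 ± 1.8 TPM in the duodenum/jejunum (log2 change 1.75 ± 0.09, adjusted p = 2.5e-06). Fdps was at 121 ± 16.4 TPM in the ileum and 40.3 ± 3.62 TPM in the duodenum/jejunum (log2 change 1.56 ± 0.09, adjusted p = 4.3e-06). None of these 3 overlapped between tissues.

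**Figure D3:**
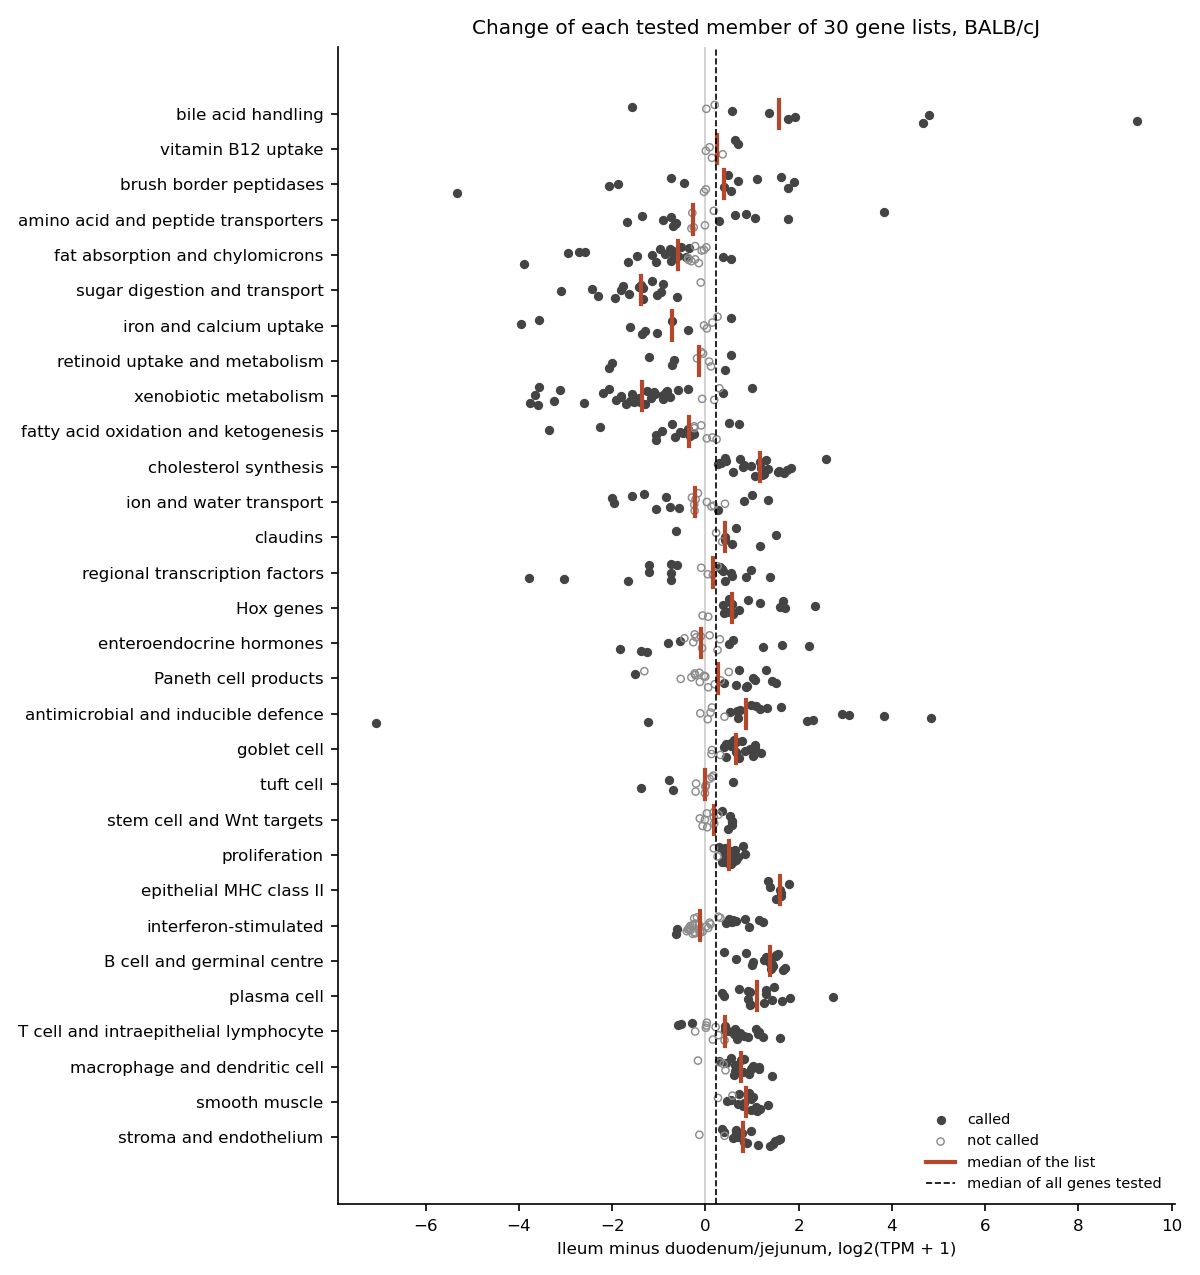
Fitted ileum minus duodenum/jejunum change, in log2(TPM + 1), of each tested member of 30 gene lists in BALB/cJ. Filled points were called at an adjusted p under 0.05, bars mark each list's median and the dashed line the median of all genes, 0.22. Sugar genes (median -1.38) and xenobiotic genes (-1.36) lie left of the line, and cholesterol synthesis (1.17) and MHC class II (1.60) right of it.

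Ion and water transport genes were higher in 4 and lower in 8 of 21, or 3 and 13 with RLE factors. The shares of all genes were 37.6% higher and 8.80% lower, or 17.2% and 18.2% with RLE factors. Lower were the carbonic anhydrase Car2 (log2 change -1.96 ± 0.25, adjusted p = 3.6e-04), the aquaglyceroporin Aqp3 (log2 change -2.01 ± 0.11, adjusted p = 3.5e-06) and the sodium/proton exchanger Slc9a3 (log2 change -1.05 ± 0.11, adjusted p = 1.7e-04). Among the higher genes, Guca2a, guanylin, was at 1236 ± 250 TPM in the ileum and 626 ± 201 TPM in the duodenum/jejunum (log2 change 1.00 ± 0.11, adjusted p = 1.9e-04). The carbonic anhydrase Car12 was at 26.1 ± 4.17 TPM in the ileum and 9.83 ± 2.33 TPM in the duodenum/jejunum (log2 change 1.34 ± 0.12, adjusted p = 5.0e-05). The proton channel Otop3, named by its size of change, held 0.0212, 0.115 and 0.575 TPM in the ileum, against 8.66, 21.2 and 44.1 TPM in the duodenum/jejunum. Otop3 changed by -4.27 ± 0.25 on the log2 scale (adjusted p = 5.1e-06). Of 9 claudins, tight junction proteins, 6 were higher and 1 lower, or 4 and 1 with RLE factors. Cldn8 (log2 change 1.52 ± 0.15, adjusted p = 1.0e-04), Cldn2 (log2 change 1.17 ± 0.13, adjusted p = 2.1e-04) and Cldn3 (log2 change 0.57 ± 0.11, adjusted p = 0.0036) rose and Cldn15 fell (log2 change -0.63 ± 0.08, adjusted p = 3.3e-04), the last at 272 ± 39.7 TPM in the ileum and 419 ± 36.1 TPM in the duodenum/jejunum.

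Transcription factors of gut regions went both ways. Of 23 tested 10 were higher and 9 lower, or 5 and 10 with RLE factors. Of all genes 37.6% were higher and 8.80% lower, or 17.2% and 18.2% with RLE factors. The share of higher factors was thus near that of all genes, and the share of lower ones above it. Onecut2, a duodenal factor, held 0.321, 0.556 and 0.863 TPM in the ileum, against 10.4, 23 and 30.1 TPM in the duodenum/jejunum. Onecut2 changed by -3.79 ± 0.14 on the log2 scale (adjusted p = 3.7e-07). Pdx1, needed for the duodenum and pancreas, held 0.118, 0.209 and 0.43 TPM in the ileum, against 2, 11 and 18.4 TPM in the duodenum/jejunum. Pdx1 changed by -3.03 ± 0.29 on the log2 scale (adjusted p = 7.1e-05). The lowest duodenum/jejunum value of both was that of mouse 5, at 10.4 and 2 TPM, and neither overlapped with the ileum. Gata4, which keeps the jejunal programme apart from the ileal in mice, was at 34.5 ± 12.7 TPM in the ileum and 106 ± 19.7 TPM in the duodenum/jejunum (log2 change -1.67 ± 0.16, adjusted p = 6.6e-05). Gata6 was at 20.6 ± 1.63 TPM in the ileum and 35.2 ± 3.97 TPM in the duodenum/jejunum (log2 change -0.74 ± 0.08, adjusted p = 1.5e-04). Creb3l3 (log2 change -1.22 ± 0.21, adjusted p = 0.0017), a regulator of lipid genes, the coactivator Ppargc1a (log2 change -1.20 ± 0.13, adjusted p = 1.5e-04) and Hnf4g (log2 change -0.73 ± 0.14, adjusted p = 0.0035) fell too. Of the higher factors, Osr2 was at 36.7 ± 4.48 TPM in the ileum and 13.6 ± 2.3 TPM in the duodenum/jejunum (log2 change 1.38 ± 0.09, adjusted p = 1.0e-05). Cdx1 was at 70 ± 4.58 TPM in the ileum and 38.2 ± 5.69 TPM in the duodenum/jejunum (log2 change 0.87 ± 0.09, adjusted p = 1.6e-04). Cdx2 (log2 change 0.57 ± 0.11, adjusted p = 0.0032), Hnf4a (log2 change 0.54 ± 0.10, adjusted p = 0.0023) and Gata5 (log2 change 0.41 ± 0.09, adjusted p = 0.0072) were higher by less, and Gata5 lost its call with RLE factors (adjusted p = 0.2).

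Hox genes, which mark position along the body axis, were higher in the ileum. Of 39 Hox genes 16 passed the minimum level, and 6 of these averaged under 1 TPM in the duodenum/jejunum and so passed mainly through the ileum. Such genes had to differ, so the counts that follow are a description. Of the 16, 14 were called higher and none lower, or 9 and none with RLE factors. The summed level of all 39 was 58.5 ± 17.3 TPM in the ileum and 26.1 ± 6.07 TPM in the duodenum/jejunum, and 386 ± 29.2 TPM in the colon of the same mice. Hoxb9 had the largest change, at 3.68, 4.22 and 7.72 TPM in the ileum, against 0, 0.156 and 0.21 TPM in the duodenum/jejunum. Hoxb9 changed by 2.35 ± 0.15 on the log2 scale (adjusted p = 6.2e-06). Hoxb6 was at 4.37 ± 1.82 TPM in the ileum and 0.609 ± 0.303 TPM in the duodenum/jejunum (log2 change 1.70 ± 0.15, adjusted p = 5.3e-05). Hoxb7 was at 4.43 ± 1.2 TPM in the ileum and 0.783 ± 0.362 TPM in the duodenum/jejunum (log2 change 1.60 ± 0.13, adjusted p = 3.4e-05). In the Hoxc cluster Hoxc8 was at 5.81 ± 1.33 TPM in the ileum and 1.14 ± 0.434 TPM in the duodenum/jejunum (log2 change 1.67 ± 0.12, adjusted p = 1.2e-05). Hoxc6 was at 6.45 ± 2.69 TPM in the ileum and 2.21 ± 0.799 TPM in the duodenum/jejunum (log2 change 1.18 ± 0.13, adjusted p = 1.5e-04). The colon held less of these 2, at 0.512 ± 0.157 and 0.431 ± 0.319 TPM, but 21 ± 3.5 TPM of Hoxb9. Hoxd4 was higher as well (log2 change 0.92 ± 0.11, adjusted p = 3.2e-04). The anterior genes Hoxa3 (0.06 ± 0.11, 0.69) and Hoxa5 (-0.06 ± 0.12, 0.7) were not called. Without mouse 2, 10 of the 16 were called. Hoxa3 and Hoxd4 overlap other annotated entries, with which reads may be shared.

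**Figure D4:**
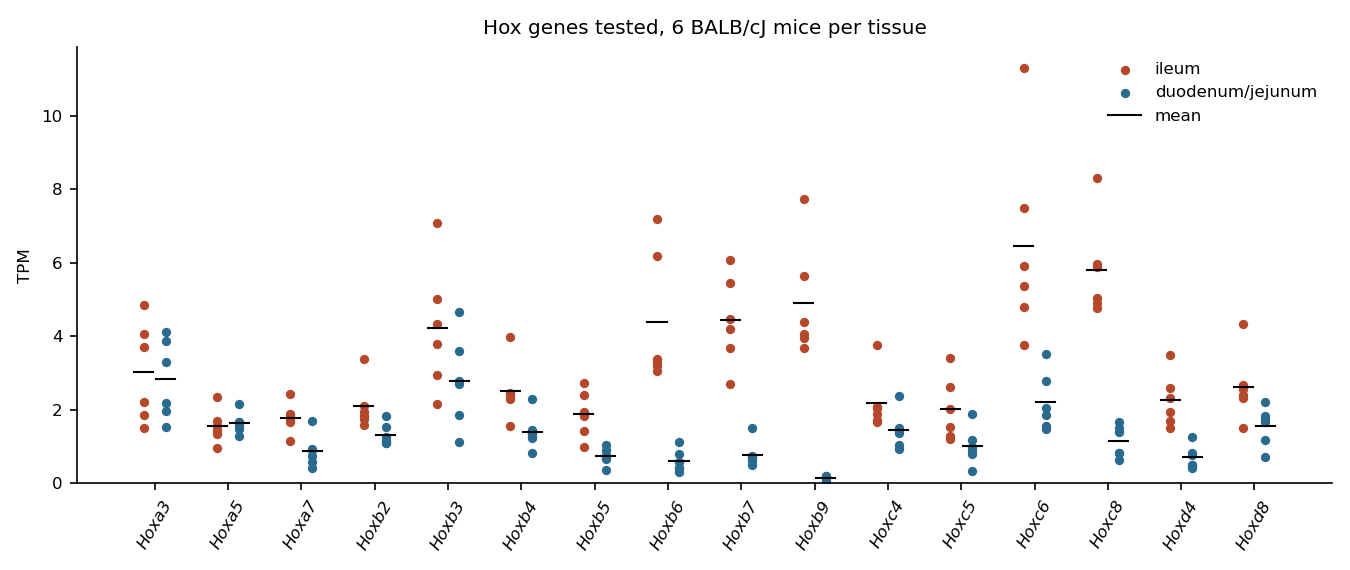
TPM of the 16 Hox genes tested in 6 ileum (left of each pair) and 6 duodenum/jejunum libraries (right) of BALB/cJ, with bars at the mean. Hoxb9 averaged 4.9 TPM in the ileum and 0.133 TPM in the duodenum/jejunum, while the tissues overlap for Hoxa3 and Hoxa5.

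Hormone genes of enteroendocrine cells split by member, with 5 higher and 5 lower of 19, or 5 and 9 with RLE factors. Of all genes 37.6% were higher and 8.80% lower, or 17.2% and 18.2% with RLE factors. Peptide YY, Pyy, held 35.7, 49.1 and 68.5 TPM in the ileum, against 5.06, 9.34 and 19.2 TPM in the duodenum/jejunum. Pyy changed by 2.23 ± 0.14 on the log2 scale (adjusted p = 6.6e-06). Gcg, the precursor of GLP-1, was at 89.4 ± 9.84 TPM in the ileum and 28.6 ± 7.4 TPM in the duodenum/jejunum (log2 change 1.64 ± 0.13, adjusted p = 2.7e-05). Neurotensin, Nts, was at 73.7 ± 24.6 TPM in the ileum and 32.7 ± 18.6 TPM in the duodenum/jejunum (log2 change 1.23 ± 0.20, adjusted p = 0.0014). In turn Ghrl, ghrelin, held 10.1, 13.1 and 17.1 TPM in the ileum, against 36, 49.4 and 84.8 TPM in the duodenum/jejunum. Ghrl changed by -1.83 ± 0.13 on the log2 scale (adjusted p = 1.1e-05). Gip, the incretin of the upper bowel, was at 84.4 ± 34.6 TPM in the ileum and 195 ± 48.9 TPM in the duodenum/jejunum (log2 change -1.26 ± 0.17, adjusted p = 4.4e-04). Cholecystokinin, Cck, was at 16.6 ± 2.81 TPM in the ileum and 45.4 ± 8.55 TPM in the duodenum/jejunum (log2 change -1.39 ± 0.13, adjusted p = 7.7e-05). Tph1, which starts serotonin synthesis, was at 5.08 ± 1.43 TPM in the ileum and 9.67 ± 2.33 TPM in the duodenum/jejunum (log2 change -0.81 ± 0.18, adjusted p = 0.0068). Tph1 fell in 5 of 6 mice and the others in all 6.

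Inducible defence genes were higher in 15 of 22 and lower in 2, or 13 and 2 with RLE factors. The acute phase gene Saa1 held 20.2, 98.4 and 222 TPM in the ileum, against 1.25, 1.62 and 3.93 TPM in the duodenum/jejunum. Saa1 changed by 4.84 ± 0.48 on the log2 scale (adjusted p = 9.5e-05). It varied widely between ileum libraries without reaching the duodenum/jejunum range. Nos2, inducible nitric oxide synthase, held 68.4, 88.4 and 99.9 TPM in the ileum, against 3.35, 4.69 and 9.39 TPM in the duodenum/jejunum. Nos2 changed by 3.82 ± 0.19 on the log2 scale (adjusted p = 1.9e-06). Duox2, which makes hydrogen peroxide at the surface, was at 66.1 ± 16.1 TPM in the ileum and 6.85 ± 1.78 TPM in the duodenum/jejunum (log2 change 3.09 ± 0.09, adjusted p = 7.4e-08). Its maturation factor Duoxa2, which overlaps Duoxa1 in the annotation, was at 21.6 ± 6.93 TPM in the ileum and 1.9 ± 0.336 TPM in the duodenum/jejunum (log2 change 2.92 ± 0.16, adjusted p = 3.8e-06). The bactericidal lectin Reg3g held 2714, 4277 and 8480 TPM in the ileum, against 629, 889 and 1641 TPM in the duodenum/jejunum. Reg3g changed by 2.30 ± 0.09 on the log2 scale (adjusted p = 6.9e-07). Related Reg genes went down: Reg1 (chr6:78422711-78428667) held 6.9, 8.92 and 17.9 TPM in the ileum, against 808, 1716 and 1905 TPM in the duodenum/jejunum. Reg1 changed by -7.06 ± 0.20 on the log2 scale (adjusted p = 4.7e-08). Reg3a was at 110 ± 40.9 TPM in the ileum and 254 ± 81.2 TPM in the duodenum/jejunum (log2 change -1.23 ± 0.16, adjusted p = 4.5e-04). No library of either tissue lay between 17.9 and 808 TPM of Reg1.

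Paneth cell products changed by member. The summed level of all 39 alpha-defensin genes was 35802 ± 4888 TPM in the ileum and 37055 ± 13309 TPM in the duodenum/jejunum, with overlapping ranges. Of 24 products tested 10 were higher and 1 lower, or 7 and 2 with RLE factors. The shares of all genes were 37.6% higher and 8.80% lower, or 17.2% and 18.2% with RLE factors. Defa29, the lower member, was at 445 ± 97 TPM in the ileum and 1303 ± 425 TPM in the duodenum/jejunum (log2 change -1.52 ± 0.18, adjusted p = 2.3e-04), but alpha-defensin copies are near-identical and share reads. The pentraxin Mptx1 was at 207 ± 31.2 TPM in the ileum and 74.1 ± 26.4 TPM in the duodenum/jejunum (log2 change 1.52 ± 0.14, adjusted p = 6.9e-05). In the colon of the same mice Mptx1 was at 548 ± 142 TPM, while the alpha-defensin genes summed to 81.6 ± 46.4 TPM. The pro-defensin processing Mmp7 was at 251 ± 47.9 TPM in the ileum and 142 ± 48.6 TPM in the duodenum/jejunum (log2 change 0.87 ± 0.11, adjusted p = 3.5e-04). Angiogenin 4, Ang4, was at 204 ± 31.5 TPM in the ileum and 113 ± 39.7 TPM in the duodenum/jejunum (log2 change 0.90 ± 0.16, adjusted p = 0.0018). Pla2g2a, a bactericidal phospholipase, was at 2142 ± 367 TPM in the ileum and 1387 ± 386 TPM in the duodenum/jejunum (log2 change 0.65 ± 0.13, adjusted p = 0.0036), with an adjusted p of 0.08 with RLE factors. Goblet cell genes were higher in 16 of 19 and lower in none, or 11 and none with RLE factors. Agr2, a folding factor of mucin, was at 749 ± 71.8 TPM in the ileum and 329 ± 57 TPM in the duodenum/jejunum (log2 change 1.20 ± 0.09, adjusted p = 1.9e-05). The secretory lineage factor Atoh1 was at 21.6 ± 2.61 TPM in the ileum and 9.83 ± 1.68 TPM in the duodenum/jejunum (log2 change 1.07 ± 0.11, adjusted p = 1.4e-04). Bcas1 was at 26.3 ± 3.59 TPM in the ileum and 12 ± 0.86 TPM in the duodenum/jejunum (log2 change 1.06 ± 0.10, adjusted p = 8.2e-05). Of 12 tuft cell genes 1 was higher and 3 lower, or none and 3 with RLE factors. Sh2d6 fell, at 0.401 ± 0.222 TPM in the ileum and 2.69 ± 0.822 TPM in the duodenum/jejunum (log2 change -1.38 ± 0.19, adjusted p = 5.7e-04). It passed the minimum level mainly through the duodenum/jejunum and so had to differ, and its change is a description. Ptgs1 rose (log2 change 0.59 ± 0.14, adjusted p = 0.0076), with an adjusted p of 0.099 with RLE factors.

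Most proliferation genes rose, while the share of stem cell genes called was near that of all genes. Of 15 stem cell genes 6 were higher and none lower, where 37.6% of all genes were higher. With RLE factors 2 were higher and 1 lower, where 17.2% of all genes were higher. Ephb2 was at 17.7 ± 3.17 TPM in the ileum and 12 ± 4.1 TPM in the duodenum/jejunum (log2 change 0.56 ± 0.12, adjusted p = 0.0046). Lgr5 was at 8.66 ± 2.62 TPM in the ileum and 5.83 ± 1.43 TPM in the duodenum/jejunum (log2 change 0.48 ± 0.12, adjusted p = 0.01), with an adjusted p of 0.11 with RLE factors. Of 25 proliferation genes 23 were higher and none lower, or 15 and none with RLE factors, with a median change of 0.50. Cdc20 was at 40.7 ± 9.84 TPM in the ileum and 22.6 ± 5.09 TPM in the duodenum/jejunum (log2 change 0.81 ± 0.10, adjusted p = 3.7e-04). Ccna2 was at 55.3 ± 13.6 TPM in the ileum and 34.5 ± 6.35 TPM in the duodenum/jejunum (log2 change 0.66 ± 0.10, adjusted p = 9.2e-04). The tissues overlapped for each.

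Most lymphoid, myeloid and stromal genes tested were higher in the ileum. These are bulk libraries, in which fewer cells of a type and less RNA per cell cannot be told apart, and the ileum library of mouse 2 was the highest in the summed B cell, plasma cell, macrophage, smooth muscle and stromal genes. For these lists counts without mouse 2 are also given. All 19 B cell and germinal centre genes tested were called higher, 17 with RLE factors and 17 without mouse 2, with a median change of 1.39. The B cell receptor gene Cd79b held 20.5, 22.3 and 40.9 TPM in the ileum, against 5.52, 6.85 and 8.68 TPM in the duodenum/jejunum. Cd79b changed by 1.71 ± 0.15 on the log2 scale (adjusted p = 5.2e-05). Ighd of naive B cells was at 16.3 ± 6.19 TPM in the ileum and 4.95 ± 1.59 TPM in the duodenum/jejunum (log2 change 1.51 ± 0.19, adjusted p = 3.6e-04). The summed level of the list was 198 to 416 TPM in the ileum and 69.4 to 111 TPM in the duodenum/jejunum. Genes of the epithelium over lymphoid follicles were higher in 6 of 9 and lower in 1, or 5 and 1 with RLE factors. Marcksl1 was at 33.6 ± 4.76 TPM in the ileum and 8.36 ± 1.23 TPM in the duodenum/jejunum (log2 change 1.89 ± 0.09, adjusted p = 1.7e-06). Pglyrp1 was at 130 ± 9.97 TPM in the ileum and 57 ± 7.66 TPM in the duodenum/jejunum (log2 change 1.18 ± 0.10, adjusted p = 3.2e-05). Ccl20, their chemokine, was lower (log2 change -0.78 ± 0.24, adjusted p = 0.023), and its call ended without mouse 1, 2 or 3 (adjusted p = 0.057 to 0.071).

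All 16 plasma cell genes were called higher, 10 of them with RLE factors and 14 without mouse 2. Ighg2b held 44.4, 50 and 88.6 TPM in the ileum, against 3.91, 7.24 and 18.8 TPM in the duodenum/jejunum. Ighg2b changed by 2.73 ± 0.22 on the log2 scale (adjusted p = 2.6e-05). Ighm was at 71.8 ± 24.7 TPM in the ileum and 28.5 ± 3.18 TPM in the duodenum/jejunum (log2 change 1.26 ± 0.14, adjusted p = 2.0e-04). T cell genes were higher in 14 of 25 and lower in 3, or 9 and 3 with RLE factors and 11 and 2 without mouse 2. The summed level of this list was not higher, at 437 ± 24.8 TPM in the ileum and 461 ± 38.4 TPM in the duodenum/jejunum. That sum includes butyrophilin-like genes of enterocytes, so it does not describe the T cell genes alone, which were not summed apart. The T cell receptor constant gene Trbc2 (log2 change 1.14 ± 0.14, adjusted p = 2.9e-04) and the adhesion receptor Cd2 (log2 change 1.59 ± 0.21, adjusted p = 4.4e-04) rose. The lower 3 were butyrophilin-like genes of enterocytes, which shape intraepithelial T cells, led by Btnl1 at 111 ± 22.8 TPM in the ileum and 165 ± 22.5 TPM in the duodenum/jejunum (log2 change -0.59 ± 0.09, adjusted p = 7.9e-04). Macrophage and dendritic cell genes were higher in 17 of 21 and lower in none, 12 and none with RLE factors, and 13 and none without mouse 2. Lyz2 was at 285 ± 90.2 TPM in the ileum and 105 ± 29.6 TPM in the duodenum/jejunum (log2 change 1.43 ± 0.16, adjusted p = 1.7e-04). The mannose receptor Mrc1 was at 9.62 ± 2.15 TPM in the ileum and 4.2 ± 0.914 TPM in the duodenum/jejunum (log2 change 1.03 ± 0.14, adjusted p = 4.6e-04). All 7 MHC class II genes, which dendritic cells, B cells and enterocytes express, were higher under both scalings, with a median change of 1.60. Cd74, the invariant chain, held 1809, 1925 and 2105 TPM in the ileum, against 527, 627 and 780 TPM in the duodenum/jejunum. Cd74 changed by 1.60 ± 0.10 on the log2 scale (adjusted p = 5.8e-06). H2-Ab1 was at 402 ± 23.3 TPM in the ileum and 131 ± 22.3 TPM in the duodenum/jejunum (log2 change 1.63 ± 0.09, adjusted p = 3.8e-06). Their summed level was 3347 to 3805 TPM in the ileum, highest in mouse 2, and 969 to 1422 TPM in the duodenum/jejunum. Interferon-stimulated genes were higher in 9 and lower in 2 of 34, or 7 and 10 with RLE factors. The shares of all genes were 37.6% higher and 8.80% lower, or 17.2% and 18.2% with RLE factors. The GTPase gene Gbp2 rose (log2 change 1.23 ± 0.12, adjusted p = 6.8e-05). Isg15, a ubiquitin-like protein, was lower in 5 of 6 mice (log2 change -0.63 ± 0.21, adjusted p = 0.035). Its call ended without mouse 2, 3, 4 or 5 (adjusted p = 0.064 to 0.091), and without mouse 2 no interferon-stimulated gene was called lower.

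Smooth muscle genes were higher in 14 of 16 and lower in none, or 11 and none with RLE factors and 14 and none without mouse 2. Acta2 was at 217 ± 41.3 TPM in the ileum and 102 ± 26 TPM in the duodenum/jejunum (log2 change 1.10 ± 0.12, adjusted p = 2.0e-04). Of 18 genes of stroma and vessels 16 were higher, or 10 with RLE factors, under which 1 was lower, and 14 without mouse 2. The collagen gene Col1a1 was at 147 ± 47.6 TPM in the ileum and 54.5 ± 12.6 TPM in the duodenum/jejunum (log2 change 1.39 ± 0.08, adjusted p = 5.4e-06). Col3a1 was at 523 ± 130 TPM in the ileum and 189 ± 34.9 TPM in the duodenum/jejunum (log2 change 1.45 ± 0.12, adjusted p = 3.4e-05). Dpt was at 49.2 ± 12.7 TPM in the ileum and 15.5 ± 3.36 TPM in the duodenum/jejunum (log2 change 1.59 ± 0.10, adjusted p = 6.9e-06). Enteric neuron and glia genes were higher in 8 of 12, or 3 with RLE factors, and lower in none, with Vip at 28.5 ± 4.23 TPM in the ileum and 19 ± 5.51 TPM in the duodenum/jejunum (log2 change 0.59 ± 0.14, adjusted p = 0.0077) and an adjusted p of 0.051 with RLE factors. Of 5 mast cell genes Kit, which pacemaker cells also express, rose (log2 change 1.13 ± 0.12, adjusted p = 1.3e-04) and 4 were not called. Adipocyte genes were higher in 7 of 8 and lower in none, or 7 and 1 with RLE factors, and higher in 2 of 8 in mice 2, 4 and 5 alone. Adipoq held 0, 10.7 and 32 TPM in the ileum, against 0.17, 1.21 and 3.6 TPM in the duodenum/jejunum. Adipoq changed by 2.10 ± 0.41 on the log2 scale (adjusted p = 0.0033). Fabp4 held 16.3, 58.5 and 137 TPM in the ileum, against 16.6, 19 and 25 TPM in the duodenum/jejunum. Fabp4 changed by 1.40 ± 0.27 on the log2 scale (adjusted p = 0.0031). The ileum of mouse 4 was listed at 0 for Adipoq, and its duodenum/jejunum at 0.274 TPM. Of 5 erythroid genes 2 were higher, Hba-a1 among them (log2 change 0.50 ± 0.16, adjusted p = 0.027), and none with RLE factors. That share was near the 37.6% of all genes called higher, which was 17.2% with RLE factors. The call of Hba-a1 ended without mouse 2 (adjusted p = 0.054), mouse 3 (0.061) or mouse 6 (0.069), and with no replicate block (0.16). Haemoglobin genes share reads between copies. How far tissue composition, attached fat or lymphoid follicles carry the other differences was not tested.

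Among the 12 libraries of small intestine, genes of stomach, Brunner glands and pancreas were high in some duodenum/jejunum libraries only. Of 16 stomach and Brunner gland genes 4 passed the minimum, and 2 of these were lower under both scalings, or 3 without mouse 2. Gkn3 and Tff2 passed mainly through the duodenum/jejunum and so had to differ, and the counts are a description. Gkn3 was lower in the ileum in all 6 mice, with 0.246, 0.334 and 1 TPM in the ileum, against 1.54, 397 and 716 TPM in the duodenum/jejunum. Gkn3 changed by -7.05 ± 0.92 on the log2 scale (adjusted p = 4.2e-04). Tff2 held 0, 0.564 and 1.54 TPM in the ileum, against 0, 1503 and 2490 TPM in the duodenum/jejunum. Tff2 changed by -8.22 ± 1.30 on the log2 scale (adjusted p = 0.0011) and was lower in 5 of 6 mice, the exception being mouse 5. Without mouse 5 the log2 changes were -8.26 ± 0.25 (adjusted p = 1.7e-06) and -9.97 ± 0.26 (adjusted p = 6.8e-07). Of 9 pancreatic genes that passed the minimum 7 were lower, 6 with RLE factors and 3 in mice 2, 4 and 5, whose duodenum/jejunum libraries held little of them. Cela1, an elastase, had 2.43 to 3.85 TPM in the ileum. In the duodenum/jejunum it had 471, 32.2 and 93.4 TPM in mice 1, 3 and 6, and 3.4, 6.59 and 3.85 TPM in mice 2, 4 and 5. Cela1 changed by -2.55 ± 0.78 on the log2 scale (adjusted p = 0.025). Its call ended without mouse 3 (adjusted p = 0.062) or mouse 6 (0.06). In mice 2, 4 and 5 alone its change was -0.48 ± 0.25 (adjusted p = 0.19). Rnase1 (log2 change -2.31 ± 0.41, adjusted p = 0.0022) and Sycn (log2 change -2.49 ± 0.67, adjusted p = 0.014) of zymogen granules were highest, among these 12 libraries, in the same 3 duodenum/jejunum libraries. The colon of the same mice also held Sycn, at 1400 to 2126 TPM, and Cela1, at 113 to 209 TPM. Of 170 genes named, 164 were called with all 6 mice and 147 with mice 2, 4 and 5 alone. Sco2, a mitochondrial copper chaperone named by its size of change, was listed at 0 in 5 of 6 ileum libraries and held 4.15 to 26 TPM in the duodenum/jejunum (log2 change -3.72 ± 0.26, adjusted p = 1.3e-05). It overlaps other genes in the annotation, and its value is uncertain.

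The same contrast was made in C57BL/6J, in which the ileum and duodenum/jejunum libraries of mouse 2 went against their labels in some markers and with them in others. The library labelled ileum of that mouse held 22.1 TPM of Fabp6 and the library labelled duodenum/jejunum 6111 TPM. Tmprss15 was at 51.2 TPM in the library labelled ileum and 39.2 TPM in the library labelled duodenum/jejunum. Gkn3, at 3.19 and 574 TPM, Akp3, at 97.8 and 1041 TPM, and S100g, at 17.4 and 1536 TPM in the same order of libraries, were as the labels say. Results are given without that mouse and with it. A strain-by-tissue term in limma over 24 or 26 libraries called 637 of 16304 genes (3.91%) without it and 209 (1.28%) with it, all of which were among the 637. Of the 637, 572 had the larger ileum minus duodenum/jejunum value in BALB/cJ, and with RLE factors, which remove a median shift of 0.17, 201 genes were called (1.23%), 92 larger and 109 smaller in BALB/cJ. No strain difference was called for the leading bile acid genes. The log2 change of Fabp6 was 9.25 in BALB/cJ and 9.21 in C57BL/6J (difference 0.04 ± 0.65 SE, adjusted p = 0.98 without mouse 2, 0.54 with it), and that of Slc10a2 4.67 and 4.76 (difference -0.08 ± 0.22, 0.83 and 0.57). For Fgf15 the changes were 4.79 and 3.71 (difference 1.09 ± 0.48, 0.17 and 0.23).

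Strain differences were named by the smallest adjusted p among those called with and without that mouse. Slc34a2, Nr0b2 and Defa29, named by other rules, are given beside them. Each is BALB/cJ minus C57BL/6J, with its SE and the adjusted p without and with the mouse. Serpina10, a protease inhibitor, was at 9.11 ± 2.84 TPM in the ileum and 0.329 ± 0.165 TPM in the duodenum/jejunum of BALB/cJ, against 0.679 ± 0.325 and 0.118 ± 0.027 TPM in the same tissues of C57BL/6J without mouse 2 (difference of changes 2.32 ± 0.22 SE, adjusted p = 1.3e-04 without mouse 2 and 6.6e-04 with it). Duox1 (1.34 ± 0.16, 9.4e-04 and 6.6e-04), Slc26a2, a sulfate transporter (0.90 ± 0.12, 0.0023 and 0.0035), and Dpep1 (1.10 ± 0.14, 0.0023 and 0.0035) also had the larger value in BALB/cJ. Mptx1 was at 207 ± 31.2 and 74.1 ± 26.4 TPM in ileum and duodenum/jejunum of BALB/cJ and at 2.66 ± 1.07 and 3.14 ± 1.73 TPM in C57BL/6J (difference of changes 1.65 ± 0.22 SE, adjusted p = 0.0023 without mouse 2 and 0.0026 with it). Slc34a2 rose in both strains, by 3.16 in BALB/cJ and 1.67 in C57BL/6J (difference of changes 1.49 ± 0.25 SE, adjusted p = 0.011 without mouse 2 and 0.041 with it). Nr0b2 went opposite ways, with a change of 0.58 in BALB/cJ and -1.66 in C57BL/6J, where the ileum held 0.272 ± 0.201 TPM and the duodenum/jejunum 3.32 ± 1.83 TPM (difference of changes 2.24 ± 0.30 SE, adjusted p = 0.0025 without mouse 2 and 0.029 with it). With RLE factors the rise in BALB/cJ was not called (limma adjusted p = 0.09). The strain difference without mouse 2 still was, at 2.10 (adjusted p = 0.0089). On the other side the aldo-keto reductase Akr1c19 (-1.36 ± 0.22, 0.0086 and 0.026), Tm4sf20 (-0.97 ± 0.17, 0.011 and 0.024), the retinol dehydrogenase Rdh16 (-0.97 ± 0.16, 0.0091 and 0.019) and Cyp3a59 (-0.78 ± 0.15, 0.017 and 0.025) had the more negative change in BALB/cJ. Vmn1r212, an entry named for a vomeronasal receptor, was at 0.15 ± 0.0757 and 1.66 ± 0.505 TPM in the 2 tissues of BALB/cJ and listed at 0 in every C57BL/6J library of both. It could meet the minimum level only through the BALB/cJ duodenum/jejunum and so had to differ, and its strain difference is a description. Defa29 was called without mouse 2 and not with it (difference of changes -2.25 ± 0.25 SE, adjusted p = 6.6e-04 without mouse 2 and 0.081 with it). The Defa, Mptx and Cyp3a families hold near copies that share reads. The log2(TPM + 1) scale compresses changes of genes at low levels. For Serpina10, Mptx1 and Vmn1r212, all low in C57BL/6J, the difference can therefore mix a strain difference in level with a difference in regional change. It was not compared under another pseudocount for these genes.

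**Figure D5:**
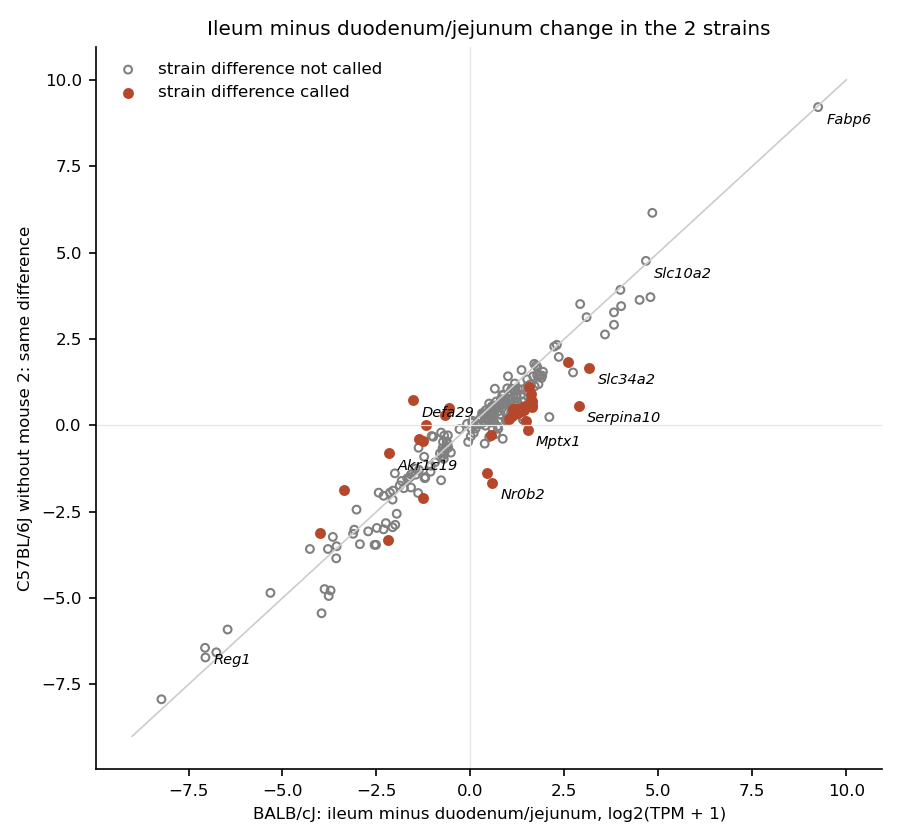
Ileum minus duodenum/jejunum change in log2(TPM + 1) in BALB/cJ (horizontal) and in C57BL/6J without mouse 2 (vertical) for the 243 genes picked by the naming rule, with the line of equality. Filled points are the 34 with a strain difference called without that mouse, such as Serpina10 (2.88 and 0.57) and Nr0b2 (0.58 and -1.66), while Fabp6 (9.25 and 9.21) lies close to the line.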

How the data were processed

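RNA of ileum, duodenum/jejunum and colon was sequenced after ribosomal depletion (TruSeq total RNA), per the labels' protocols, and kallisto 0.44.0 and GRCm38 are named in the submitters' processing notes; the transcript annotation and use of strand are not given in the sources used here. In the deposited tables the values are log2(TPM + 1) values: turned back, each of the 12 libraries summed to 990532 to 994945 TPM, so the authors' TPM were scaled per library and the tables were joined. TPM keep no depth, so the depth is unknown and no counting interval is given. Between 14636 and 16186 entries reached 1 TPM per library. No pair of libraries was identical. A share of at most 0.24% lay in 26 names turned into dates, which were not named.

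Entries that reached 1 TPM in 6 or more of 12 libraries were fitted on log2(TPM + 1) with limma 3.58.1 (R 4.3.3, trended variance, mouse as a block, two-sided, Benjamini-Hochberg, threshold 0.05). Whether the mice were littermates or processed together is not stated. The pairing comes from the mouse label: deviations from the tissue means correlated at 0.20 to 0.42 within a mouse and at -0.25 to 0.11 between mice, and all 6 mice matched best with themselves. The strain difference was the strain-by-tissue term. The fits were tested on simulated data. Alternatives were RLE size factors, no block, other pseudocounts and filters, no trend, each mouse left out, and, chosen after seeing the data, mice 2, 4 and 5 alone and joint leave-outs for the strain term. Members and lists were chosen with earlier results of these data known. Named were the 12 largest changes per direction that did not overlap, at 5 TPM or more in the higher tissue; tested members of the bile acid, B12, transcription factor and Hox lists; up to 4 called members per direction of other lists by adjusted p; and 5 strain differences per direction. The text describes 170 of the 243 genes this gave; a few others are not reported here. Coordinates are of GENCODE M21 on GRCm38, in which 31787 entries matched 1 gene. Exons of Sco2, Nr1i3, Slc1a1, Acsm3, Slc51a, Duoxa2, Fgf15, Apoa4 and Ccna2 overlap other annotated genes over long stretches, so their reads could be shared.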

Additional observations from a re-analysis of the deposited data

Results flagged for a closer look

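A library was set apart when its gap to the nearest of the other 5, on the log2(TPM + 1) scale, exceeded Dixon's critical share of the range of all 6, and chance does this in about 1 in 20 groups. Of 340 groups examined, 41 met it, and 20 of these were the ileum library of mouse 2. In that library 9 genes were lowest: Plb1 (65.3 TPM), Naaladl1 (718 TPM), Mep1a (249 TPM), Xpnpep2 (139 TPM), Agpat2 (144 TPM), Cldn15 (197 TPM), Alpi (113 TPM), Creb3l3 (39.9 TPM) and Rdh16 (7.27 TPM). In the same library 11 genes were highest. Those of the proximal bowel were Tmprss15 (0.699 TPM), Reg1 (17.9 TPM), Gkn3 (1 TPM), Akp3 (22 TPM) and Otop3 (0.575 TPM), all below every duodenum/jejunum value. The others were Ptgs1 (47.8 TPM), Ighd (28.6 TPM), Ighm (121 TPM), Lyz2 (466 TPM), Mrc1 (13.9 TPM) and Col3a1 (780 TPM).

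In other ileum libraries, Fabp6 was highest in mouse 5 (11144 TPM) and Fth1 lowest there (962 TPM). In mouse 1 Nr0b2 was lowest (2.44 TPM), and Sco2 (1.94 TPM) and Isg15 (63.4 TPM) were highest. Among duodenum/jejunum libraries, that of mouse 5 was lowest in Gkn3 (1.54 TPM), Tff2 (0 TPM) and Slc9a3 (47.5 TPM) and highest in Plb1 (64.5 TPM) and Guca2a (1024 TPM). That of mouse 2 was lowest in Nr1h4 (23.5 TPM), Sco2 (4.15 TPM), Dgat2 (194 TPM), Agpat2 (123 TPM) and Cldn15 (352 TPM) and highest in Hoxb7 (1.5 TPM) and Sqle (19.5 TPM). Mouse 1 was highest in Slc6a14 (2.31 TPM) and Gip (291 TPM), mouse 3 in Pdk4 (61.1 TPM) and mouse 4 in Atoh1 (13.1 TPM). Their part in these results was not tested beyond leaving each mouse out.

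The ileum minus duodenum/jejunum change differed between strains for 15 of the 170 genes described, by limma's strain-by-tissue term over all 26 libraries (BALB/cJ minus C57BL/6J). The difference was 2.49 for Serpina10, 2.00 for Nr0b2, 1.77 for Slc34a2, 1.69 for Mptx1, 1.36 for Duox1, 1.14 for Dpep1, 1.04 for H2-Ab1, 0.98 for Mrc1 and 0.89 for Slc26a2. It was -1.80 for Cyp4a10, -1.54 for Akr1c19, -1.19 for Vmn1r212, -1.04 for Tm4sf20, -0.97 for Rdh16 and -0.83 for Cyp3a59. Serpina10 and Vmn1r212 had to differ by the way they met the minimum level, so their values are a description.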

How the results depend on the processing

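The 7139 genes called in BALB/cJ became 5436 with RLE size factors, 5794 with no replicate block, 6499 with no filter on low values and 5747 to 6640 with 1 mouse left out. They became 3023 in mice 2, 4 and 5 alone (2299 higher and 724 lower), a fit of fewer samples, and 984 when a change of at least 1 was also asked for. Of the 170 genes described, 164 were called, and 159 to 164 with 1 mouse left out. Direction and call side were kept by 148 under every alternative followed gene by gene, which excludes the other filters. None reversed. The call of 11 ended with RLE factors, of 7 with no replicate block and of 17 in mice 2, 4 and 5 alone.

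The strain difference depended more on the libraries. Its 209 genes became 55 with no replicate block, 63 with RLE factors (20 larger and 43 smaller in BALB/cJ), 60 with a pseudocount of 0.1, and 446 without C57BL/6J mouse 2 and BALB/cJ mouse 5. With 1 mouse left out they ranged between 13 and 637, the last without C57BL/6J mouse 2. Of 18 genes whose strain difference was followed, 12 were called over all libraries. With 1 BALB/cJ mouse or C57BL/6J mouse 2 left out, 7 to 13 were called. The 18 were not followed without each of the other C57BL/6J mice. Over all genes, 13 were called without C57BL/6J mouse 7 and 23 without C57BL/6J mouse 5. The cause was not tested. TPM keep no read numbers, so how far depth limits low genes is unknown.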
